A study of Homo sapiens with 6 samples.

Results

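A set of 9 genes that mark the cadherin switch and the epithelial-mesenchymal transition (EMT) was followed in HEC-1B, an established line of human endometrioid carcinoma. They are the cadherin genes CDH1, CDH2 and CDH3, the mesenchymal genes VIM and FN1, the transcription factors ZEB1, SNAI2 and GRHL2 and the splicing regulator ESRP1. They were chosen by name, with earlier results of these data known, and 9 of 9 were found among the 23284 gene symbols of each library. The series compared cultures in which the passage from ALDH1A1-low to ALDH1A1-high cells was or was not accelerated, as judged by cell sorting, with ALDH1A1, an aldehyde dehydrogenase, as the marker. The 6 libraries form 3 groups of 2. The high-potential accelerated group is labelled as having a high ALDH potential and an accelerated ALDH-high transition. The group called parental accelerated here is labelled as accelerated only, with no mention of potential. The high-to-low group is labelled as passing from ALDH-high to low and also carries no mention of potential. All 3 groups are labelled as the same line. The descriptions of both high-potential samples also carry an unexplained tag, a2-PAM, which the other 4 lack. Those of the high-to-low samples read ALDH-high, like the accelerated ones, so title and description differ there, and the groups follow the titles. No high-potential high-to-low library was analysed here, so the high-potential label and the acceleration cannot be told apart when high-potential libraries are set against high-to-low libraries. The labels do not say how the high-potential cells were derived, whether they are 1 clone, or whether replicates are separate cultures, so the p-values reflect library-to-library spread only, and that spread may be technical.

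In an epithelium, E-cadherin (the product of CDH1) joins neighbouring cells and is tied to the actin cytoskeleton through catenins. During EMT the zinc finger repressors ZEB1 and SLUG (the product of SNAI2) bind E-box motifs and silence CDH1, cells gain N-cadherin (CDH2), vimentin (VIM) and fibronectin (FN1), and this exchange of cadherins is called the cadherin switch. GRHL2 and ESRP1 act on the epithelial side: GRHL2 activates epithelial genes and opposes ZEB1, and ESRP1 directs epithelial splicing. The miR-200 microRNAs are known to repress ZEB1.

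All values are FPKM, a fragment number corrected for transcript length and library size, so levels of different genes can be set side by side per length. FPKM hold no counts, but relative depth could be read from low values: with high-potential replicate 1 at 1, the other libraries lay between 0.807 and 1.074. Between 14786 and 15386 genes had a value above 0. ALDH1A1 was 352.5 and 303.6 FPKM in high-potential accelerated libraries, 26.7 and 316.9 in parental accelerated libraries and 28.4 and 9.44 in high-to-low libraries. Parental accelerated replicate 1 thus lay inside the high-to-low range of the marker, against its label. The keratin gene KRT18 (at least 290.6 FPKM) and the Müllerian transcription factor gene PAX8 (at least 123.1) were high in each library. Other keratin genes differed in opposite directions. KRT8 averaged 48.2 ± 1.62 FPKM in high-potential accelerated, 100.5 ± 5.06 in parental accelerated and 99.2 ± 12.1 in high-to-low libraries (SD, n = 2 each), and KRT7 12.6 ± 1.48, 3.12 ± 2.62 and 4.36 ± 1.28 FPKM in that order. Neither was called against high-to-low cells (-1.02 with limma adjusted p = 0.073 for KRT8, 1.36 with adjusted p = 0.204 for KRT7), and their part in the results was not tested. Of 8 epithelial carcinoma markers, 1 (CDH1) stayed below 1 FPKM in all 6 libraries. MUC1, of the same list, was 1.09 FPKM in high-potential replicate 2 and at most 0.515 in every other library. Of 9 fibroblast markers 8 stayed at or below 0.414 FPKM. THY1, which other cell types carry too, was 154.5 and 108.5 FPKM in high-potential accelerated, 297.1 and 8.04 in parental accelerated and 313.9 and 272.5 in high-to-low libraries, so the summed list ran with it (109.1 to 154.9, 8.49 to 297.2 and 272.8 to 314.3), and its part in the results was not tested. The endothelial markers (5) stayed at or below 0.92 FPKM and the leukocyte markers (8) at or below 1.79, and COL3A1, DCN, FAP, PECAM1, CD3E and MS4A1 were listed at 0 in each library.

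In all 3 groups VIM, ZEB1 and CDH2 were expressed, CDH2 only weakly in high-potential cells, while CDH1, SNAI2 and GRHL2 were at or near 0. ESRP1 was below 0.3 FPKM in 5 libraries and at 1.09 FPKM in high-potential replicate 1, where CDH2 was 2.01 FPKM. In high-potential replicate 2 CDH2 was 1.14 FPKM and ESRP1 0.0677 FPKM. The 1 member that differed past the test was CDH2, which was far lower in high-potential accelerated cells than in either other group. VIM was also lower and FN1 and ZEB1 were higher there in every library, but none of these 3 passed the test.

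**Figure D1:**
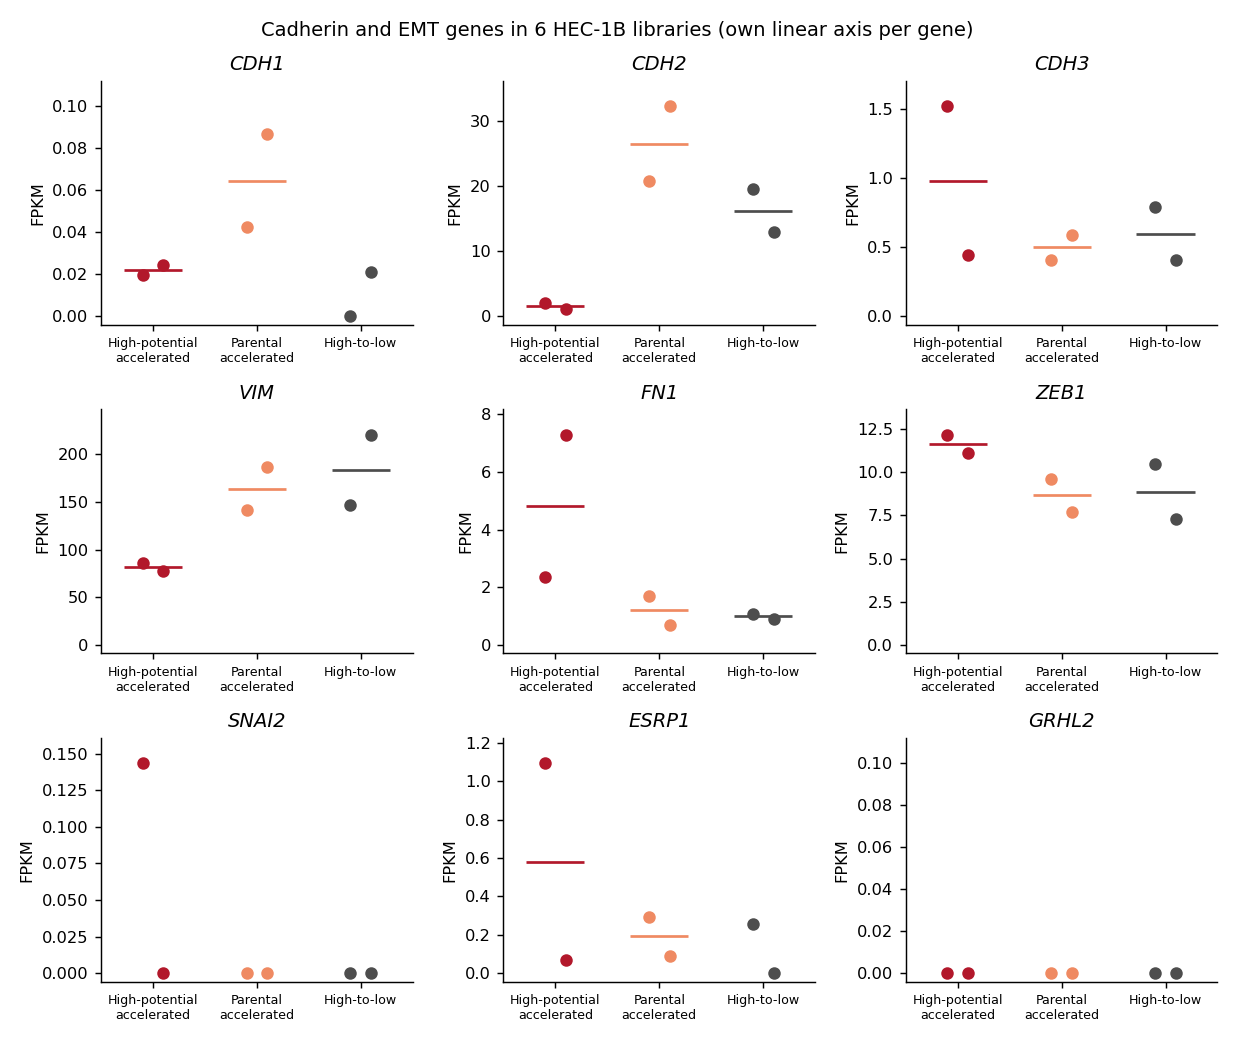
FPKM of the 9 genes in each library, with 2 points per group (replicate 1 left, replicate 2 right) and a line at the group mean where both values are above 0; each panel has its own linear axis. CDH2 and VIM sit lowest in high-potential accelerated libraries, and GRHL2 is at 0 in each library.

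CDH2 encodes N-cadherin, a classical cadherin of neural and mesenchymal cells. High-potential accelerated libraries had 2.01 and 1.14 FPKM (mean 1.57 ± 0.617, SD, n = 2). In the parental accelerated libraries it was 20.8 and 32.3 FPKM (26.6 ± 8.10, SD, n = 2), and in high-to-low libraries 19.5 and 12.99 FPKM (16.3 ± 4.63, SD, n = 2). Each high-potential library was below each of the other 4, and the high-potential mean was 9.68% of the high-to-low mean and 5.92% of the parental accelerated mean. The order of group means was parental accelerated, high-to-low, high-potential accelerated. The upper pair did not overlap between libraries but their difference did not pass the test. In bulk RNA, fewer cells with CDH2 and less CDH2 RNA per cell cannot be told apart.

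Differences were tested with limma on log2(FPKM + 1) in 1 model over the 6 libraries, for 12135 genes that had at least 1 FPKM in at least 2 libraries, with Benjamini-Hochberg adjustment over those genes and calls made under 0.05. Of the 9 genes, CDH2, VIM, FN1 and ZEB1 (4) passed this filter, and the other 5 were too low. Against high-to-low libraries, 1 of the 4 tested members was called in high-potential accelerated cells, where 0.799% of all genes tested were called and 0.404% were called lower. That gene was CDH2, which differed by -2.74 in log2 units (SE 0.328, limma adjusted p = 0.0334, and 0.0164 to 0.235 over the alternative settings), and 0.247% of genes tested had a more negative difference. The libraries of these groups did not overlap for 4 of 4 tested members, against 51.1% of all genes tested. Of these, 2 were higher, against 24.7% of all genes, and 2 were lower, against 26.4%. An unadjusted p under 0.05 was met by 3 of the 4, against 18.4% of all genes. The members were chosen with earlier results of these data known, so no excess is read from member counts in any comparison. The call was lost without high-potential replicate 1 (-2.99, limma adjusted p = 0.12) or replicate 2 (-2.49, adjusted p = 0.235), and also when high-to-low replicate 1 (-2.46, adjusted p = 0.163) or replicate 2 (-3.02, adjusted p = 0.124) was left out. It was also lost without the filter on low values (limma adjusted p = 0.0659) and with a term for the leading number of the sample descriptions (-2.77, adjusted p = 0.0568). Both high-to-low samples share 1 leading number, while it differs between the replicates of each accelerated group. The term is thus partly confounded with this comparison.

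Between the accelerated groups, which differ in the high-potential label, 1 of the 4 tested members was called, against 0.494% of all genes tested, 0.206% lower. CDH2 differed by -3.41 in log2 units in high-potential cells (SE 0.328, limma adjusted p = 0.0167, and 0.0121 to 0.158 over the alternative settings), and 22 genes had a more negative difference. Libraries did not overlap for 4 of 4 tested members, against 43.4% of all genes tested, and 3 of 4 had an unadjusted p under 0.05, against 14.3%. The call was lost without high-potential replicate 1 (-3.66, limma adjusted p = 0.0862) or replicate 2 (-3.16, adjusted p = 0.158), without parental accelerated replicate 1 (-3.71, adjusted p = 0.0503) or replicate 2 (-3.11, adjusted p = 0.0794), and without the filter (adjusted p = 0.053). This comparison shares its high-potential libraries with the one against high-to-low cells, so the values of both are given side by side and are not independent.

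Between parental accelerated and high-to-low libraries, 0 of the 4 tested members were called by limma and 0 had an unadjusted p under 0.05, against 0.0165% and 0.972% of all genes. CDH2 was higher by 0.67 (95% interval -0.123 to 1.46, limma adjusted p = 1). Without parental accelerated replicate 1, the library with low ALDH1A1, the difference was 0.97 (limma adjusted p = 0.747). Leaving out high-to-low replicate 1 gave 0.95 and replicate 2 gave 0.39, and leaving out parental accelerated replicate 2 gave 0.37. The other tested members differed by -0.15 for VIM, 0.10 for FN1 and -0.02 for ZEB1 (limma adjusted p = 1 for each), and each of these 3 values changed sign under at least 1 alternative setting. CDH2 was the 1 tested member whose libraries did not overlap, against 24.1% of all genes. When both accelerated groups were averaged and set against high-to-low libraries, 0 of 4 members were called by limma, 2 had an unadjusted p under 0.05 (9.25% of all genes did), and 0.0659% of all genes were called. CDH2 differed there by -1.03 (SE 0.284, limma adjusted p = 0.446), a mean over a low and a high group, and libraries overlapped for 4 of 4 tested members.

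**Figure D2:**
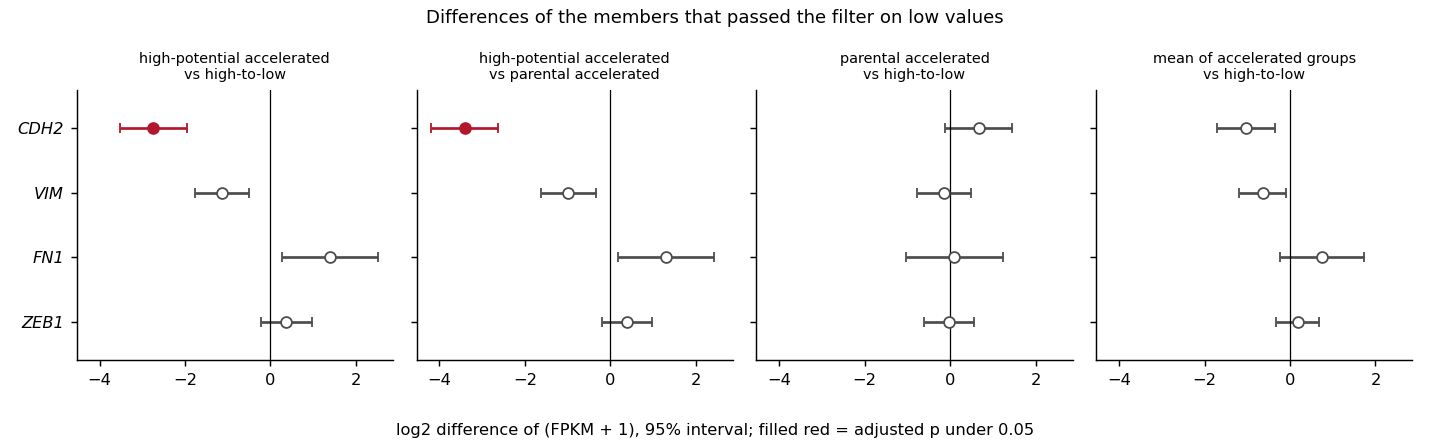
Log2 difference of (FPKM + 1) for the 4 members that passed the filter, in 4 comparisons, with 95% intervals from limma; filled red points have an adjusted p under 0.05. CDH2 is the 1 called gene, at -2.74 and -3.41 in the panels with high-potential accelerated cells against a single group.

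Promoters are shown for the 4 tested members, which were also the members with a sequence used here. Each of these genes separated the high-potential libraries from the other 4. Such separation is common. It held for 51.1% of all genes tested against high-to-low and 43.4% against parental accelerated libraries, and the share that met both was not computed. The bases are the 250 before the RefSeq transcription start (build GRCh38.p14; where CDH2 has 2 starts and ZEB1 has 7, the most upstream), 5′ to 3′ on the gene's strand. Capitals mark CACCT or its reverse AGGTG, the core that ZEB proteins bind, and GGGCGG or its reverse CCGCCC, the GC box of Sp1-type factors.
CDH2, chr18:28177131-28177380, minus strand: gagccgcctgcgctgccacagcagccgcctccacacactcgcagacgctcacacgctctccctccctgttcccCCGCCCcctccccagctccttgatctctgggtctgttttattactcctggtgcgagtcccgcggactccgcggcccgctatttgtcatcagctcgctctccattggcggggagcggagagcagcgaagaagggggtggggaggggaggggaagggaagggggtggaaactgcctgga
VIM, chr10:17227991-17228240, plus strand: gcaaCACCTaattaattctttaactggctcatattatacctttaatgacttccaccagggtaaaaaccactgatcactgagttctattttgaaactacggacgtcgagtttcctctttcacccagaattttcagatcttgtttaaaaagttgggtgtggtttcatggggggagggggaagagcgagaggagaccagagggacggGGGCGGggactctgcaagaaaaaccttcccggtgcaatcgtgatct
FN1, chr2:215436069-215436318, minus strand: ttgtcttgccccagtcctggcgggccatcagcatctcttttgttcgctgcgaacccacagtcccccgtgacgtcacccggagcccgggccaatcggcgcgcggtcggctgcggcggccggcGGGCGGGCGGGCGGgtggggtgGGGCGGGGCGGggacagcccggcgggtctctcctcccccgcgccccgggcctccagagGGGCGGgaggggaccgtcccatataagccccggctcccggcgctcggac
ZEB1, chr10:31318167-31318416, plus strand: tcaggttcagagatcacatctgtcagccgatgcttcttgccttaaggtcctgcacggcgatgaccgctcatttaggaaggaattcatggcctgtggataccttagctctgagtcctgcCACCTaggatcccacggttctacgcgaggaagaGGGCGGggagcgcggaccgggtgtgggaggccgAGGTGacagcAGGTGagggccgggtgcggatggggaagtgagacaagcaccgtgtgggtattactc
CDH2 held 1 GC box and 0 matches of CACCT, VIM 1 of each, and FN1 6 GC boxes, some of which overlap one another, and 0 of CACCT. ZEB1 held 3 matches of CACCT and 1 GC box. On either strand, CACCT was in 45.4% and GGGCGG in 42.6% of the 35097 RefSeq promoters of this length, so these matches are common. GC content was 66.0% for CDH2, 46.0% for VIM, 76.4% for FN1 and 59.2% for ZEB1. No factor binding was measured, and the files were made on another build (hg19), so these sequences are context and not data of the study. The other members had no sequence used here.

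VIM encodes vimentin, the intermediate filament of mesenchymal cells, and was the most abundant member per length in each library. It was 86.0 and 77.4 FPKM in high-potential accelerated libraries (81.7 ± 6.08, SD, n = 2), 141.2 and 186.5 in parental accelerated libraries (163.8 ± 32.1, SD, n = 2) and 146.3 and 220.5 in high-to-low libraries (183.4 ± 52.4, SD, n = 2). Both high-potential libraries were below the other 4, while the parental accelerated and high-to-low libraries overlapped. The log2 difference was -1.13 against high-to-low cells (SE 0.264, limma adjusted p = 0.107) and -0.98 against parental accelerated cells (limma adjusted p = 0.18). VIM lay between the percentiles 93.6 and 98.2 of all listed genes, and at its lowest it was still 77.4 FPKM. The ratio of VIM to CDH2, both in FPKM, was 42.8 and 68.0 in high-potential accelerated, 6.78 and 5.78 in parental accelerated and 7.49 and 17.0 in high-to-low libraries. The ratio was thus highest in both high-potential libraries.

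FN1 encodes fibronectin, a matrix glycoprotein, and its difference had the opposite sign. It was 2.37 and 7.29 FPKM in high-potential accelerated libraries (4.83 ± 3.48, SD, n = 2), 1.69 and 0.698 in parental accelerated libraries (1.19 ± 0.701, SD, n = 2) and 1.08 and 0.913 in high-to-low libraries (0.998 ± 0.120, SD, n = 2). Both high-potential libraries were above the other 4, but replicate 2 was far above replicate 1. The log2 difference was 1.41 against high-to-low cells (SE 0.466, limma adjusted p = 0.195) and 1.31 against parental accelerated cells (limma adjusted p = 0.281). Without high-potential replicate 2 these were 0.76 and 0.66. Per length, FN1 was below VIM in each library.

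ZEB1, the repressor of CDH1 named above, was expressed throughout. It stood at 12.2 and 11.1 FPKM in high-potential accelerated libraries, 9.60 and 7.72 in parental accelerated libraries and 10.5 and 7.27 in high-to-low libraries. The high-potential libraries were the highest by a narrow margin, and the other groups overlapped. Against high-to-low cells the log2 difference was 0.38 (95% interval -0.212 to 0.965, limma adjusted p = 0.47), and against parental accelerated cells it was 0.40 (95% interval -0.193 to 0.983, limma adjusted p = 0.536). The value against high-to-low cells was 0.61 without high-to-low replicate 1 and 0.14 without replicate 2, and that against parental accelerated cells was 0.25 without parental accelerated replicate 2. SNAI2 was 0.143 FPKM in high-potential replicate 1 and listed at 0 in the other 5 libraries. The related factors stayed low as well: SNAI1 reached 2.83, SNAI3 1.80, TWIST1 1.47 and ZEB2 1.40 FPKM at most, and TWIST2 was listed at 0 in each library. SNAI3 was 1.21 and 1.80 FPKM in high-potential accelerated libraries and at most 1.04 in the others (0.91 against high-to-low, limma adjusted p = 0.157). Without the high-potential libraries SNAI3 would not have passed the filter, so the filter favoured a higher value there.

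On the epithelial side, CDH1 was 0.0197 and 0.0245 FPKM in high-potential accelerated libraries, 0.0424 and 0.0868 in parental accelerated libraries, and 0 and 0.0211 in high-to-low libraries. Scaled to relative depth, these values were whole multiples of 1 step (within 0.05 of a step): 1 and 1 in high-potential accelerated, 2 and 4 in parental accelerated and 0 and 1 in high-to-low libraries. Values on such a grid are what single fragments would give, so the order of groups in CDH1 rests on at most 4 such steps and no difference is read from it. GRHL2 was listed at 0 in 6 of 6 libraries. ESRP1 was 1.09 and 0.0677 FPKM in high-potential accelerated libraries, 0.294 and 0.0898 in parental accelerated libraries and 0.254 and 0 in high-to-low libraries. In each group replicate 1 was above replicate 2, and the groups overlapped. In the fit without a filter CDH1, CDH3, SNAI2 and ESRP1 were not called in any comparison (lowest limma adjusted p, 0.581 for SNAI2). CDH3, the gene of P-cadherin, a classical cadherin of basal epithelia, was 1.52 and 0.443 FPKM in high-potential accelerated, 0.408 and 0.590 in parental accelerated and 0.791 and 0.406 in high-to-low libraries, with overlapping groups.

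With CDH1 near 0, other cadherins made up the remainder. Over 20 cadherin genes (the 3 members and 17 others), the FPKM sum was 31.9 and 26.8 in high-potential accelerated libraries, 61.8 and 42.4 in parental accelerated libraries and 55.2 and 29.6 in high-to-low libraries. CDH2 took 6.30 and 4.25% of that sum in high-potential accelerated, 33.7 and 76.2% in parental accelerated and 35.4 and 43.9% in high-to-low libraries. CDH6, the gene of K-cadherin, known from kidney, was the most abundant cadherin in both high-potential libraries, with 42.9 and 52.3% of the sum. It was 13.7 and 14.0 FPKM there, against 5.49 and 1.37 in parental accelerated and 3.09 and 1.59 in high-to-low libraries. The CDH6 difference did not pass the test (2.19 against high-to-low, SE 0.491, limma adjusted p = 0.1; 1.92 against parental accelerated, adjusted p = 0.168). CDH16, the gene of kidney-specific cadherin, was 9.53 and 5.42 FPKM in high-potential accelerated, 25.2 and 4.19 in parental accelerated and 22.7 and 10.1 in high-to-low libraries, and it was not called in any of the 4 comparisons. CDH13, which encodes a cadherin anchored by a lipid tail, was listed at 0 for each high-potential library, and had 6.02 and 0 FPKM in parental accelerated libraries and 4.74 and 1.87 in high-to-low libraries.

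**Figure D3:**
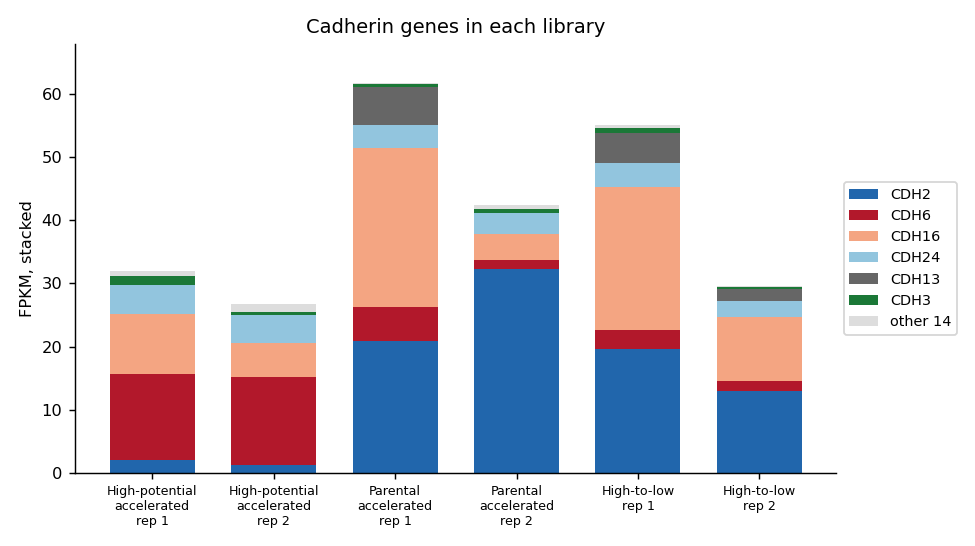
FPKM of 20 cadherin genes stacked per library, with 6 genes shown by name and the other 14 in light grey. CDH6 is the greatest block of both high-potential accelerated bars, and CDH2 is 4.25 to 6.30% of them against at least 33.7% in the other 4 libraries.

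Among the genes around the members, few passed the test. In high-potential accelerated against high-to-low cells 49.2% of all genes were higher, 18.4% had an unadjusted p under 0.05 and 0.799% were called, and the list counts stand against these shares. Of 11 tested catenins and adherens junction partners 0 were called by limma in high-potential accelerated against high-to-low cells (3 at an unadjusted p under 0.05), 8 were lower and 3 higher, and the median was -0.14, where the median of all genes was -0.01. CTNNB1, the gene of beta-catenin, was 185.2 and 200.4 FPKM in high-potential accelerated, 271.4 and 324.5 in parental accelerated and 281.7 and 311.6 in high-to-low libraries (-0.62 against high-to-low, limma adjusted p = 0.18). PVRL2, which encodes the junction protein nectin-2, had the greatest difference in that list, with 116.8 and 118.7 FPKM in high-potential accelerated, 61.4 and 61.6 in parental accelerated and 67.8 and 46.6 in high-to-low libraries (1.05 against high-to-low, limma adjusted p = 0.0886). JUP, the gene of plakoglobin, had 0.81 (limma adjusted p = 0.471) and PVRL3, that of nectin-3, -0.72 (limma adjusted p = 0.204). Of 11 tested epithelial adhesion and polarity genes, 7 were lower and 4 higher in high-potential than in high-to-low cells (median -0.61), 0 were called and 6 had an unadjusted p under 0.05 (18.4% of all genes did). OCLN, the gene of the tight junction protein occludin, was 2.33 and 0.845 FPKM in high-potential accelerated, 13.7 and 4.65 in parental accelerated and 15.1 and 9.88 in high-to-low libraries (-2.42, limma adjusted p = 0.0945). SPINT2, a protease inhibitor gene of epithelia, was 54.1 and 38.5 FPKM in high-potential accelerated, 177.3 and 95.4 in parental accelerated and 208.1 and 123.4 in high-to-low libraries (-1.79, limma adjusted p = 0.0955). EPCAM, an epithelial adhesion molecule, was 3.49 and 2.16 FPKM in high-potential accelerated, 5.82 and 4.43 in parental accelerated and 6.17 and 10.6 in high-to-low libraries (-1.28, limma adjusted p = 0.125). MAL2, a gene of apical transport, had the opposite sign (2.19, limma adjusted p = 0.116), and passed the filter only through the high-potential libraries. A higher value of MAL2 there was thus bound to follow, and it is 1 of the 6 counted.

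Of 13 tested EMT-linked transcription factors, 6 were higher and 7 lower in high-potential accelerated than in high-to-low cells (median -0.13), with 0 called (0.799% of all genes) and 4 at an unadjusted p under 0.05 (18.4% of all genes). SNAI3, which would not have passed the filter without the high-potential libraries, was 1 of these 4. FOXC1, a forkhead factor, was 2.21 and 2.57 FPKM in high-potential accelerated, 14.3 and 8.51 in parental accelerated and 12.9 and 6.90 in high-to-low libraries (-1.63, limma adjusted p = 0.0977). ID1, an inhibitor of helix-loop-helix factors, was 150.0 and 617.8 FPKM in high-potential accelerated, 82.7 and 95.9 in parental accelerated and 95.9 and 186.2 in high-to-low libraries (limma adjusted p = 0.4). Of 12 tested epithelial factors and splicing regulators, 7 were higher and 5 lower (median 0.08), with 0 called and 3 at an unadjusted p under 0.05. ESRP2, the paralogue of ESRP1, was the more abundant of the pair in each library, with 2.98 and 4.50 FPKM in high-potential accelerated, 6.93 and 14.0 in parental accelerated and 5.77 and 10.5 in high-to-low libraries (-0.92 against high-to-low, limma adjusted p = 0.306). ELF3, an epithelial ETS factor, was 17.4 and 30.4 FPKM in high-potential accelerated, 9.05 and 4.37 in parental accelerated and 7.70 and 3.22 in high-to-low libraries (1.99, limma adjusted p = 0.114). FOXA1, a pioneer factor of epithelia, had 0.76 (limma adjusted p = 0.159). Of 12 tested mesenchymal and matrix genes, 9 were higher and 3 lower (median 0.74). An unadjusted p under 0.05 was met by 7, in both directions and with SPARC and DES among them, against 18.4% of all genes. DES and TAGLN, both among the 9 higher, would not have passed the filter without the high-potential libraries. DES was 1.83 and 2.43 FPKM there and at most 1.08 elsewhere, and TAGLN 1.26 and 3.09 and at most 1.02. No excess is therefore read from these counts or from the median. The 1 called gene was SPARC, the gene of a matricellular glycoprotein. It had a mean of 87.4 ± 17.8 FPKM (SD, n = 2) in high-potential accelerated, 0.0867 and 0 in parental accelerated and 0.325 and 0.0287 in high-to-low libraries (6.23, limma adjusted p = 0.000595). SPARC passed the filter only through the high-potential libraries, being under 1 FPKM in the other 4, so a difference was bound to follow and its call adds nothing to the list. The next in that list was COL6A1, a chain of type VI collagen, with 13.8 and 6.03 FPKM in high-potential accelerated, 3.41 and 4.45 in parental accelerated and 3.98 and 1.55 in high-to-low libraries (1.52, limma adjusted p = 0.169). The 5 miR-200 family genes were listed at 0 in each library, and the cDNA kit primes on poly(A) tails, which mature microRNAs lack. Against parental accelerated cells the medians were -0.42 for epithelial adhesion, -0.09 for catenins, 0.25 for EMT-linked factors, 0.07 for epithelial factors and 0.63 for mesenchymal genes, and SPARC was again the 1 called gene. For parental accelerated against high-to-low libraries limma called 0 genes of any list, with 0 at an unadjusted p under 0.05.

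**Figure D4:**
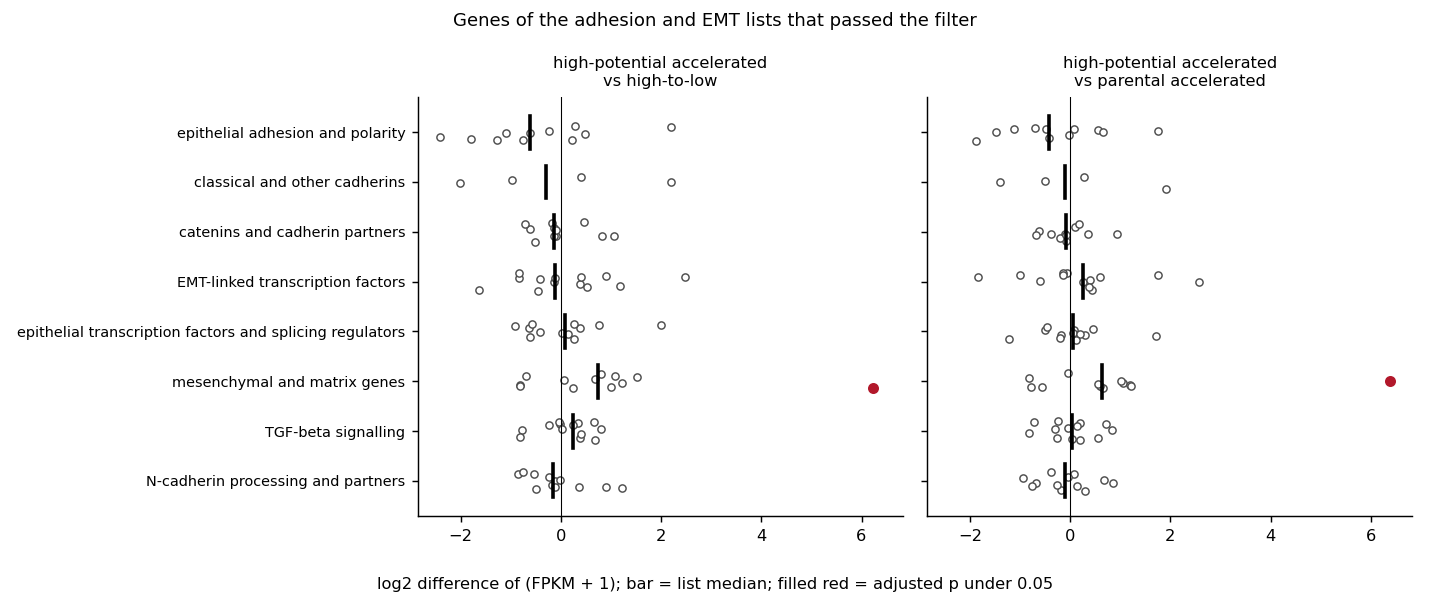
Log2 difference of (FPKM + 1) for genes of 8 lists in high-potential accelerated against high-to-low cells (left) and against parental accelerated cells (right); each point is a gene, the bar is the list's median and red marks an adjusted p under 0.05. SPARC, at 6.23 and 6.39, is the 1 called gene, and the members of the lists otherwise spread on both sides of 0.

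The 4 tested members varied with the libraries in opposite directions. Across the 6 libraries the Pearson correlation of log2(FPKM + 1) was 0.86 between CDH2 and VIM, and -0.87 and -0.88 between each of these and FN1, over points that share 3 groups. ZEB1 had -0.69 with CDH2 and -0.91 with VIM. The 5 genes most like CDH2, among 3683 with a range of at least 1 on the log2 scale, were ZNF512 (r = 0.9965), CMTM6 (0.9939), SLC7A9 (0.9938), DIAPH2 (0.9935) and CCDC120 (0.991). SLC7A9, an amino acid transporter gene, was 0.553 and 0.152 FPKM in high-potential accelerated, 4.55 and 8.11 in parental accelerated and 6.06 and 3.53 in high-to-low libraries. With 6 points in 3 groups high values are common: 271 genes had r above 0.9 with CDH2. The kit does not keep the strand, so reads from antisense genes that overlap VIM or ZEB1 could not be separated from theirs.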

How the data were processed

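RNA of 6 HEC-1B libraries (3 groups of 2, from the sample titles) was extracted with a miRNeasy kit, made into cDNA with SMART-Seq v4 and prepared with a Nextera kit, per the labels' protocols. The authors deposited 1 FPKM value per gene symbol and library. The submitters' processing notes name TopHat2 2.0.13, Cuffnorm 2.2.1 and hg19. The annotation used and the Cuffnorm scaling were not stated in the sources used here. Replicate depth could be read only relative to 1 library, from ratios of values under 0.3 FPKM that coincide within 3%.

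Values were kept where at least 2 libraries had at least 1 FPKM (12135 of 23284 genes) and tested as log2(FPKM + 1), which understates changes of low genes, with limma 3.58.1 in R 4.3.3 (variance trend, 3 residual degrees of freedom, 4 two-sided comparisons, Benjamini-Hochberg over all genes tested). No count model was applied to FPKM. An exact 0 can be a failed estimate and is given as listed. Small RNA symbols held 8.72 to 18.45% of the FPKM sum.

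The members and the gene lists were chosen with earlier results of these data known. Named are the 9 members, called genes of the lists, and up to 3 genes of greatest difference per list with a group mean of at least 3 FPKM. A gene that this rule also names is not reported here. CTNNB1, SNAI1, SNAI3, ZEB2, TWIST1 and TWIST2 were added for their roles after their values were seen, and MUC1 and PCDH7 for their low values. DES and TAGLN were added for how they met the filter. Promoter sequences of 4 members are from RefSeq. Alternatives changed the pseudocount, filter, scaling, variance model, libraries and model terms.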

Additional observations from a re-analysis of the deposited data

How the results depend on the processing

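Of 264 values of member differences under alternative settings, 243 kept direction and side of the threshold, 11 lost a call (each CDH2), 1 gained one and 9 changed sign. CDH2 stayed lower in high-potential cells in each of 17 alternatives per comparison. The cause of these changes was not tested, except that settings without a library have fewer samples.

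Called members against high-to-low were 0 without a filter, 0 with the description-number term and 2 with the replicate block; in the comparison of accelerated groups they were 0 without a filter. Leaving out 1 library gave 0 to 1 called members in both comparisons with high-potential cells, and 0 in the other 2.

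Called genes for high-potential against high-to-low were 97: 54 and 63 with a pseudocount of 0.1 and 0.25, 39 without a filter, 63 with a mean of at least 3 FPKM, 944 with the replicate block, 54 with the description-number term and 13 to 115 without 1 library. Between the accelerated groups they were 60: 31 with a pseudocount of 0.1, 38 without a filter, 25 with the stricter filter, 39 with only the groups compared, 546 with the replicate block, 105 with the description-number term and 14 to 38 without 1 library. For parental accelerated against high-to-low they were 2: 4 with either pseudocount, 0 with equal sums without small RNA genes, 7 with only the groups compared, 7 with the description-number term and 4 to 7 without 1 library. For the mean of the accelerated groups they were 8: 3 without a filter, 1 with equal sums without small RNA genes, 17 with the replicate block, 15 with the description-number term and 3 to 15 without 1 library.

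The replicate block uses the number in the titles, which no label calls a pairing; across genes, the difference of replicate 1 and 2 correlated at 0.158 to 0.281 between groups, and with 2 numbers this does not show pairs. Under the block VIM was called against high-to-low (-1.13, limma adjusted p = 0.0336).

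For parental accelerated against high-to-low the sign changed for ZEB1 with equal sums (0.0655), with the description-number term (0.0816), without parental accelerated replicate 2 (0.12) and without high-to-low replicate 1 (0.22). It changed for FN1 with the description-number term (-0.0607) and without parental accelerated replicate 1 (-0.23), and for VIM without parental accelerated replicate 1 (0.0538) and without replicate 2 of the high-to-low group (0.148). For the mean of the accelerated groups ZEB1 turned to -0.0566 without high-to-low replicate 2. Without 1 library, the difference ran between -0.44 and 0.148 for VIM, -0.234 and 0.43 for FN1 and -0.254 and 0.217 for ZEB1, and that of ZEB1 in the mean comparison between -0.0566 and 0.415. None of these was called. With 2 libraries a group, differences as small as those of ZEB1 are within the spread.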

Other observations

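Genes that act on or beside N-cadherin were expressed in each group, except that PCDH7 reached at most 0.848 FPKM in the accelerated groups. ADAM9, a membrane metalloprotease gene, was 298.4 and 238.3 FPKM in high-potential accelerated, 135.7 and 205.3 in parental accelerated and 141.0 and 144.8 in high-to-low libraries, a log2 difference of 0.90 against high-to-low (limma adjusted p = 0.152). FGFR4, a fibroblast growth factor receptor gene, was 50.5 and 30.2 FPKM in high-potential accelerated, 70.4 and 81.0 in parental accelerated and 68.5 and 74.6 in high-to-low libraries (-0.85, limma adjusted p = 0.178). FGFR1, the receptor known to associate with N-cadherin, averaged 25.4 ± 12.3 FPKM in high-potential accelerated, 13.2 ± 4.46 in parental accelerated and 9.82 ± 2.82 in high-to-low libraries (SD, n = 2 each; 1.23, limma adjusted p = 0.195). Of the 12 genes of this list 9 were lower and 3 higher, limma called 0, and 4 had an unadjusted p under 0.05, against 18.4% of all genes. PCDH7, 1 of the 9, passed the filter only through the high-to-low libraries, so a lower value was bound to follow.

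Of 13 tested genes of TGF-beta signalling, a known inducer of EMT, 8 were higher and 5 lower in high-potential accelerated than in high-to-low cells (median 0.25); limma called 0, and 3 had an unadjusted p under 0.05, near the 18.4% of all genes. The receptor gene TGFBR2 was 27.3 and 18.9 FPKM in high-potential accelerated, 44.5 and 38.1 in parental accelerated and 39.6 and 41.6 in high-to-low libraries (-0.81, limma adjusted p = 0.147). The ligand gene TGFB1 had -0.78 (limma adjusted p = 0.28). SMAD6, which encodes an inhibitor of BMP signalling, was 11.4 and 19.0 FPKM in high-potential accelerated, 8.20 and 7.53 in parental accelerated and 6.57 and 9.76 in high-to-low libraries (0.81, limma adjusted p = 0.241). ID3, an inhibitor of helix-loop-helix factors, was at 29.5 and 204.0 FPKM in high-potential accelerated, 9.003 and 16.6 in parental accelerated and 6.82 and 24.8 in high-to-low libraries. Replicate 2 was the higher one in each of the 3 groups.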
